A study of Mus musculus with 2 samples.

Results

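The insulin-like growth factor (IGF) system was described here through 10 genes, chosen by symbol from the 32285 genes of the count tables. They are the ligands *Igf1* and *Igf2*, the receptor *Igf1r*, the binding proteins *Igfbp2*, *Igfbp3*, *Igfbp4*, *Igfbp5*, *Igfbp6* and *Igfbp7*, and *Pappa*. Transcripts of 9 of them were seen in kept cells of the intact library and of all 10 in the callus library. The data are 10x Chromium 3′ single-cell RNA-seq of sorted tdTomato+ cells, in which each unique molecular identifier (UMI) counts 1 captured transcript. The paper found little tdTomato transcript in its hematopoietic and endothelial clusters and regarded these as artifacts of cell sorting. Endothelial cells, macrophages and other blood cells described here are therefore not taken as cells of the labelled lineage. Intact femoral diaphyses with surrounding muscle gave 1 library and fracture callus gave the other, each from the pooled tissue of 3 mice. The mice were littermates carrying Clec3b.creERT2 and the Ai14.R26.tdTomato reporter, described as male. The paper describes both tissues as taken from 3 littermates, without saying outright that each mouse gave both. The mice received tamoxifen at 75 mg/kg at P21, P23 and P25. Tamoxifen starts labelling of cells in which the *Clec3b* promoter drives CreERT2 and of their descendants. The femoral osteotomy with an intramedullary pin was made at 6 weeks of age, 2 weeks after tamoxifen, and tissue was collected 3 weeks after surgery.

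IGF1 and IGF2 are secreted peptides that signal through the receptor tyrosine kinase IGF1R to the PI3K-AKT and MAPK cascades. Outside cells they are held by binding proteins, of which IGFBP6 prefers IGF2 and IGFBP7 binds IGFs only weakly. PAPP-A, encoded by *Pappa*, is a secreted metalloprotease that cuts IGFBP4 and IGFBP5 and so frees the bound ligand. In bone, IGF1 is stored in matrix and acts on osteoblasts, and mesenchymal cells are a main local source of it.

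After the cell filter, 1207 of 1872 intact and 3295 of 3987 callus barcodes were kept, with medians of 4939 and 6843 UMIs. The libraries shared 1 barcode. *Xist*, which is expressed from the inactive X chromosome of female cells, was seen in 89.5% of intact and 94.1% of callus fibroblasts, and 4 Y-linked genes had 0 UMIs in the fibroblasts of both libraries, so both libraries go against the label male. Cells were typed from marker lists that hold none of the 10 genes. Cells with some combinations of myeloid lists were kept, and the 28 intact and 189 callus cells with other combinations of lineages were left out. With 1 library per condition nothing was tested between conditions. All intervals are 95% intervals for counting error only (exact Poisson for levels, exact Clopper-Pearson for shares of cells), and mouse, library and condition cannot be told apart.

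Of 279 intact and 269 callus stromal cells, most fell into fibroblast types. *Pi16*-type fibroblasts, with markers of adventitial and fascial fibroblasts such as *Pi16* and *Dpp4*, numbered 204 and 122. *Col15a1*-type fibroblasts, with markers of parenchymal fibroblasts, numbered 38 and 17, and tendon-like cells with transcripts such as *Thbs4* and *Cilp* numbered 4 and 33. A further 30 and 33 stromal cells met none of these definitions and are called other stromal. Marrow stromal cells (BMSC; *Lepr*, *Adipoq*, *Kitl* and *Cxcl12*) and osteoblasts were described in the callus only, with 37 and 27 cells. Only 1 intact cell passed as an osteoblast, with 7 of the 8 osteoblast-list genes seen, and its levels are not given. The intact library had 2 cells passing as BMSC, both with *Lepr* and *Adipoq* at 0 UMIs and a median of 7 of the 8 *Pi16*-type markers, and these go against their name. Endothelial cells numbered 27 and 91 and macrophages 19 and 66. The gates cut a range: 16 of 272 intact and 28 of 172 callus cells lay within 0.1 of the line between the *Pi16*-type, the *Col15a1*-type and other stromal cells.

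The 10 genes divided by cell type into a stromal, an endothelial and a macrophage pattern. Stromal cells other than osteoblasts carried *Igf1* with *Igfbp4*, *Igfbp5*, *Igfbp6* and *Igfbp7* in proportions that differed between subtypes. BMSC lacked *Igfbp6* among these, and osteoblasts had little of any of them. Endothelial cells carried mainly *Igfbp7*, and macrophages *Igf1* and *Igfbp4*. B lineage cells, which are not a known source of these stromal transcripts, served as the measure of free RNA. Levels are given as CPM, the UMIs of a gene summed over the cells of a type and scaled to 1e6 UMIs of these cells. In B lineage cells, 9 of the 10 genes stood at or below 8.21 CPM in both libraries. After every cell was thinned to 2000 UMIs, so that shares of cells do not follow depth, each of these 9 was seen in at most 1.62% of them. *Igfbp4* was the exception, at 41.9 CPM and in 5.46% of thinned callus B lineage cells. Whether this *Igfbp4* was free RNA was not tested.

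**Figure D1:**
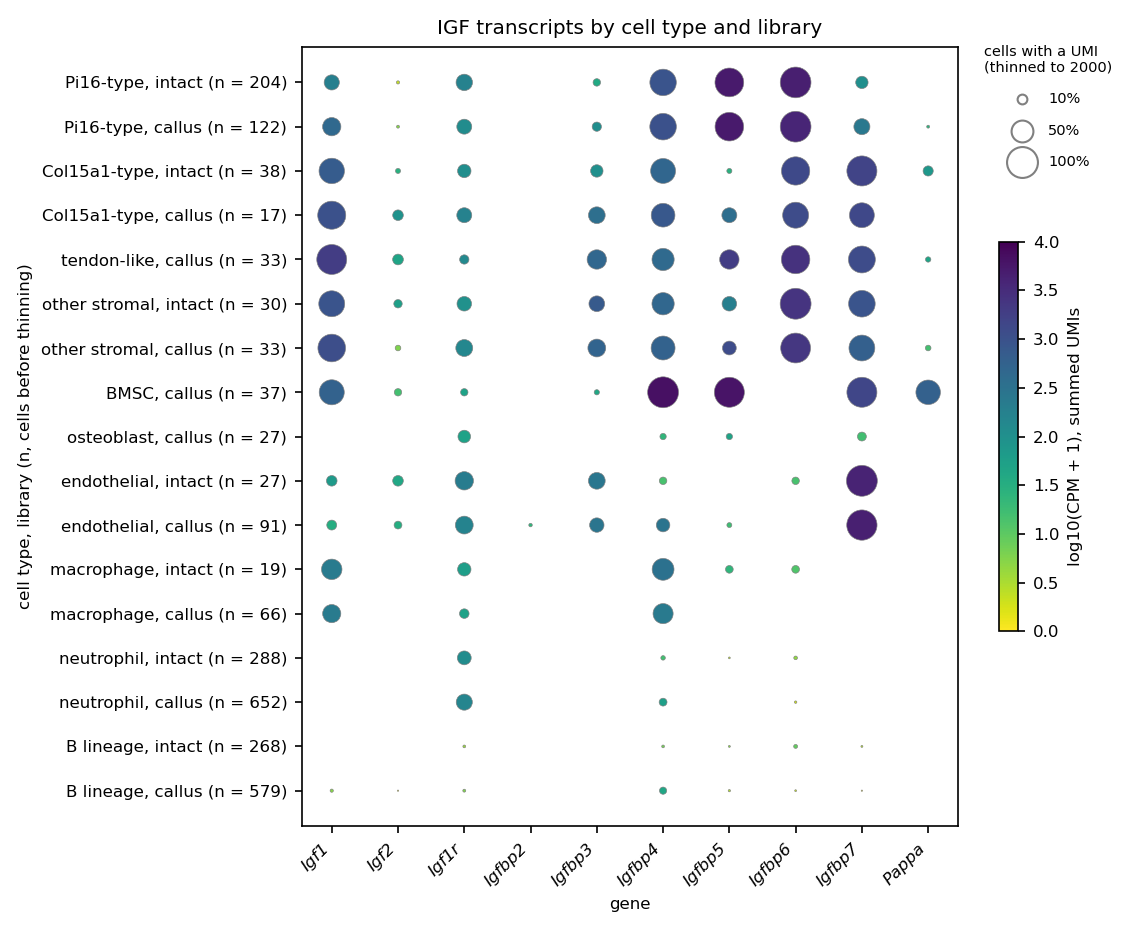
Levels of the 10 IGF genes (columns) in cell types of the intact and callus libraries (rows, n = cells). Dot area is the percentage of cells with a UMI after thinning to 2000 UMIs and colour is log10(CPM + 1) of the summed UMIs, with darker dots for higher levels. The largest, darkest dots are *Igfbp5* and *Igfbp6* in *Pi16*-type cells (5252 and 4588 CPM in the intact library), *Igfbp4* and *Igfbp5* in BMSC (6902 and 6086 CPM) and *Igfbp7* in endothelial cells (4152 CPM intact, 4456 CPM callus).

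*Igf1* (chr10:87858265-87937042, plus strand, GRCm38 as are all positions here) was the main ligand. In the callus its level was highest in tendon-like cells, at 1959 CPM (95% interval 1824–2102). Other stromal cells followed at 1149 CPM (1006–1307) and *Col15a1*-type cells at 1024 CPM (865–1205), and their intervals overlapped. BMSC had 580 CPM (493–678), *Pi16*-type cells 437 CPM (396–482) and macrophages 226 CPM (177–283), each below the interval of the type before it. Osteoblasts had 0 *Igf1* UMIs among 596629, which allows up to 6.18 CPM. Osteoblasts were thus the stromal type at the bottom of the *Igf1* order and tendon-like cells the type at the top. In the intact library, other stromal cells had 914 CPM (784–1059), *Col15a1*-type cells 710 CPM (615–815), macrophages 224 CPM (135–349) and *Pi16*-type cells 192 CPM (170–216). The intervals of the first pair overlapped, and so did those of the last pair.

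In single cells, *Igf1* was detected in 24.1% of thinned intact *Pi16*-type cells (18.1–30.8) and in 67.6% of *Col15a1*-type cells (50.2–82.0). In the callus the shares were 35.1% (26.3–44.8) and 82.4% (56.6–96.2), and 93.9% of tendon-like cells (79.8–99.3). Without thinning, *Igf1* was seen in 43.6% of the intact *Pi16*-type cells and in 59.0% of those from callus, at median depths of 7500.5 and 7472.5 UMIs. No thinned B lineage cell of the intact library and 1.09% in the callus had one, at median depths of 2872.5 and 3295 UMIs.

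*Igf2* (chr7:142650766-142666816, minus strand), the fetal growth factor transcribed from an imprinted locus, was sparse. All fibroblasts together had 23 intact and 36 callus UMIs, or 11.7 CPM (7.39–17.5) and 21.7 CPM (15.2–30.1). In callus *Col15a1*-type cells, 11 of the 13 UMIs lay in 1 cell, so that level (91.2 CPM) describes a cell rather than a type. Other stromal cells had 56.8 CPM in the intact library, from 11 UMIs, and 4.97 CPM in the callus, from 1 UMI. Cells with myogenic progenitor markers had 57.9 CPM (21.2–126) in 15 intact cells and 156 CPM (82.8–266) in 10 callus cells. In these callus cells 8 of 13 UMIs were from 1 cell.

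*Igf1r* (chr7:67952827-68233668, plus strand) encodes the signalling receptor and was spread over stromal, endothelial and some myeloid cells. Intact levels were 175 CPM (154–197) in *Pi16*-type, 109 CPM (74.0–155) in *Col15a1*-type and 217 CPM (124–353) in endothelial cells. Callus levels were 118 CPM (96.7–142), 175 CPM (114–259) and 159 CPM (123–201). In the callus the intervals of these 3 types overlapped. Neutrophils, which were not sorted for but made up 288 intact and 652 callus cells, had *Igf1r* at 118 CPM (103–134) and 150 CPM (141–160). B lineage cells had 3.08 and 4.83 CPM. The part of free RNA in the neutrophil level was not tested. BMSC and osteoblasts were lower, at 47.8 CPM (25.4–81.7) and 48.6 CPM (32.6–69.8).

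**Figure D2:**
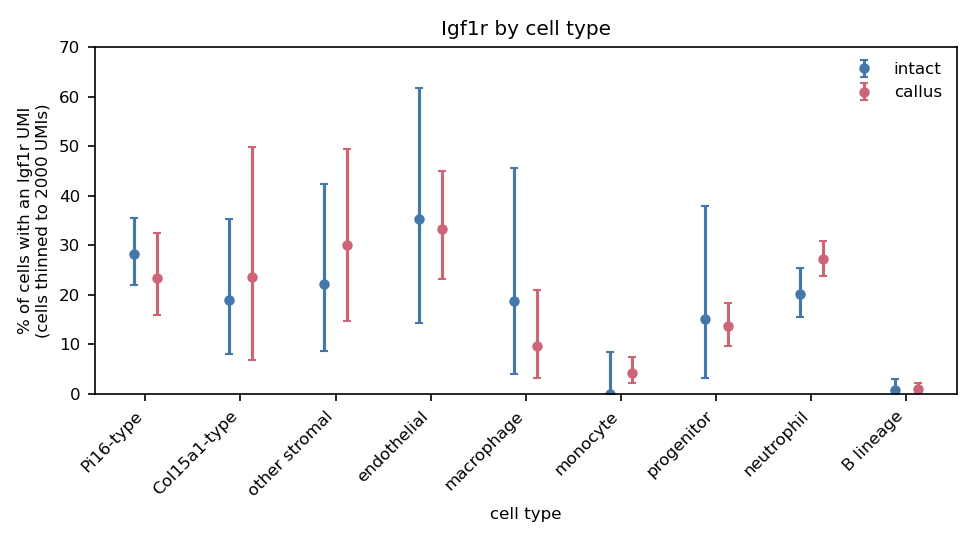
Percentage of cells with an *Igf1r* UMI (y axis, cells thinned to 2000 UMIs) by cell type (x axis) in the intact (blue) and callus (red) libraries, with Clopper-Pearson 95% intervals. *Pi16*-type, *Col15a1*-type, other stromal and endothelial cells and neutrophils sit between 18.9% and 35.3%, and B lineage cells at 0.810% and 0.911%.

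Ligand and receptor transcripts were then counted in the same thinned cells. Of 33 callus tendon-like cells, 28 had *Igf1* without *Igf1r*, 3 had both and 0 had *Igf1r* without *Igf1*. In callus endothelial cells, 24 of 78 had *Igf1r* without *Igf1*, 6 had *Igf1* without *Igf1r* and 2 had both. In intact *Pi16*-type cells, 34 of 187 had *Igf1r* without *Igf1*, 26 had *Igf1* without *Igf1r* and 19 had both. At 2000 UMIs per cell a transcript at these levels is often missed, so a cell without a UMI is not a cell without the transcript.

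*Igfbp5* (chr1:72857932-72874884, minus strand), a binding protein that attaches to matrix and is abundant in bone, had the widest gap between the fibroblast types. *Pi16*-type cells had 5252 CPM (5135–5371) in the intact and 5245 CPM (5098–5396) in the callus library. *Col15a1*-type cells had 28.1 CPM (12.1–55.4) and 365 CPM (273–478). The ratio between the types was thus 187-fold (94.8–433) in the intact and 14.4-fold (10.9–19.3) in the callus library. In thinned cells *Igfbp5* was detected in 86.6% of intact *Pi16*-type cells (80.9–91.2) against 2.70% of *Col15a1*-type cells (0.0684–14.2). The spread among *Pi16*-type cells was wide. Per 10000 UMIs of a cell, the intact cells had a median of 43.9 with the 10th and 90th percentiles at 1.86 and 141. In the callus the median was 42.3 and these percentiles 0.767 and 145.

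*Igfbp6* (chr15:102144362-102149511, plus strand) was the companion of *Igfbp5* in *Pi16*-type cells but was not restricted to them. Its level there was 4588 CPM (4479–4699) intact and 3894 CPM (3767–4023) callus. *Col15a1*-type cells had 1325 CPM (1195–1466) and 1228 CPM (1053–1424), and tendon-like callus cells had 2666 CPM (2508–2831). Nearly every fibroblast carried it, with 96.9% of intact and 93.2% of callus cells positive after thinning. BMSC of the callus had 0 *Igfbp6* UMIs in 272246, and fibroblasts of the same library were at least 289-fold higher at 3181 CPM, against the limit of 3 counts. This was the sharpest divide between marrow stroma and fibroblasts among the 10 genes.

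*Igfbp7* (chr5:77349240-77408041, minus strand), a secreted protein also known as angiomodulin for its place in vessel walls, had the opposite distribution among fibroblasts. *Col15a1*-type cells had 1546 CPM (1405–1698) intact and 1347 CPM (1163–1552) callus. *Pi16*-type cells had 106 CPM (90.4–125) and 253 CPM (222–288), which was 14.5-fold and 5.32-fold lower. *Igfbp3* (chr11:7206086-7213923, minus strand), the main carrier of IGF in serum, followed the same order: 102 CPM (68.3–146) and 358 CPM (266–471) in *Col15a1*-type against 38.2 CPM (28.9–49.6) and 109 CPM (88.8–133) in *Pi16*-type cells. In callus *Col15a1*-type cells 27 of the 51 *Igfbp3* UMIs came from 1 cell. *Igfbp3* was patchy everywhere, and other stromal cells of the intact library held 147 UMIs in 9 of 30 cells.

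Between the 2 fibroblast types, 6 of the 8 genes with at least 20 UMIs were at least 2-fold apart in the intact library, where 21.7% of all genes were. *Igfbp5* and *Igfbp6* were higher in *Pi16*-type and *Igf1*, *Igfbp3*, *Igfbp7* and *Pappa* in *Col15a1*-type cells. In the callus 5 of 8 were at least 2-fold apart, against 21% of all genes, and these 5 had the same directions as in the intact library. *Pappa*, at 23 against 3 UMIs, was not among them. *Igfbp4* was 1.85-fold higher (1.56–2.22) in intact and 1.23-fold higher in callus *Pi16*-type cells. The lists that divide the types were chosen for other genes, and the callus *Col15a1*-type cells number 17, of which 8 had 2 tendon-list transcripts. The 8 tendon-list genes summed to 1572 CPM in these callus cells and to 566 CPM in intact *Col15a1*-type cells, with *Scx* and *Tnmd* at 0 in both. In the 3 callus cells with 0 tendon-list genes seen, *Igfbp5* was 722 CPM (20 UMIs) and *Igfbp3* 1083 CPM (30 UMIs). In the 8 callus cells with 2 seen, *Igfbp5* was 183 CPM and *Igfbp3* 127 CPM. *Igf1* (1444 and 1140 CPM) and *Igfbp7* (1660 and 1365 CPM) had the same order, and *Igfbp6* (794 and 1238 CPM) the opposite one. The part of the tendon-list transcripts in the callus values was not tested.

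**Figure D3:**
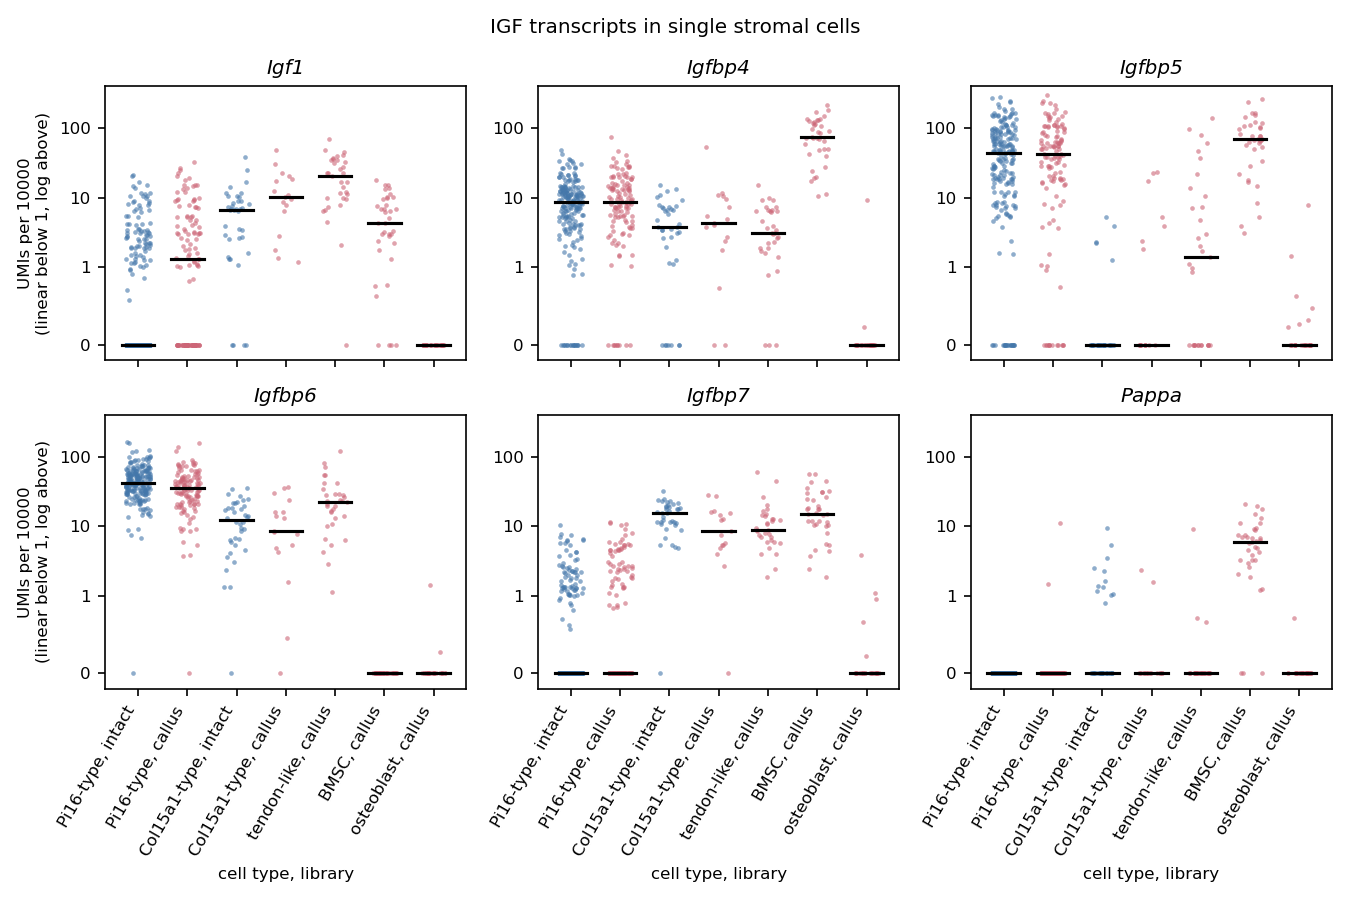
UMIs per 10000 UMIs of the cell (y axis, linear below 1 and logarithmic above) for 6 IGF genes in single stromal cells, by type and library (x axis; blue intact, red callus). Each point is a cell and black bars are medians. *Igfbp5* medians are 43.9 and 42.3 in *Pi16*-type and 0 in *Col15a1*-type cells, *Igfbp7* has the opposite order, and *Pappa* has a median above 0 only in BMSC (6 per 10000).

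The make-up of binding protein transcripts differed accordingly. As 3′ UMIs count captured molecules and not length, the 6 binding proteins were expressed as shares of their summed UMIs. In intact *Pi16*-type cells *Igfbp5* took 48.1% and *Igfbp6* 42.1% of 15987 UMIs, and in the callus 49.9% and 37.0% of 9642. In intact *Col15a1*-type cells *Igfbp7* took 44.2% and *Igfbp6* 37.9% of 996 UMIs, with *Igfbp5* at 0.803%. Endothelial cells were nearly uniform, with *Igfbp7* at 93.3% of 328 and 88% of 2170 UMIs. BMSC divided theirs between *Igfbp4* (47.6%) and *Igfbp5* (42.0%). Macrophages had *Igfbp4* and little else, at 27 of 30 and 77 of 82 UMIs. By single cells, *Igfbp5* was the most abundant binding protein in 89 and *Igfbp6* in 105 of 204 intact *Pi16*-type cells. In the callus this was 69 and 43 of 122.

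**Figure D4:**
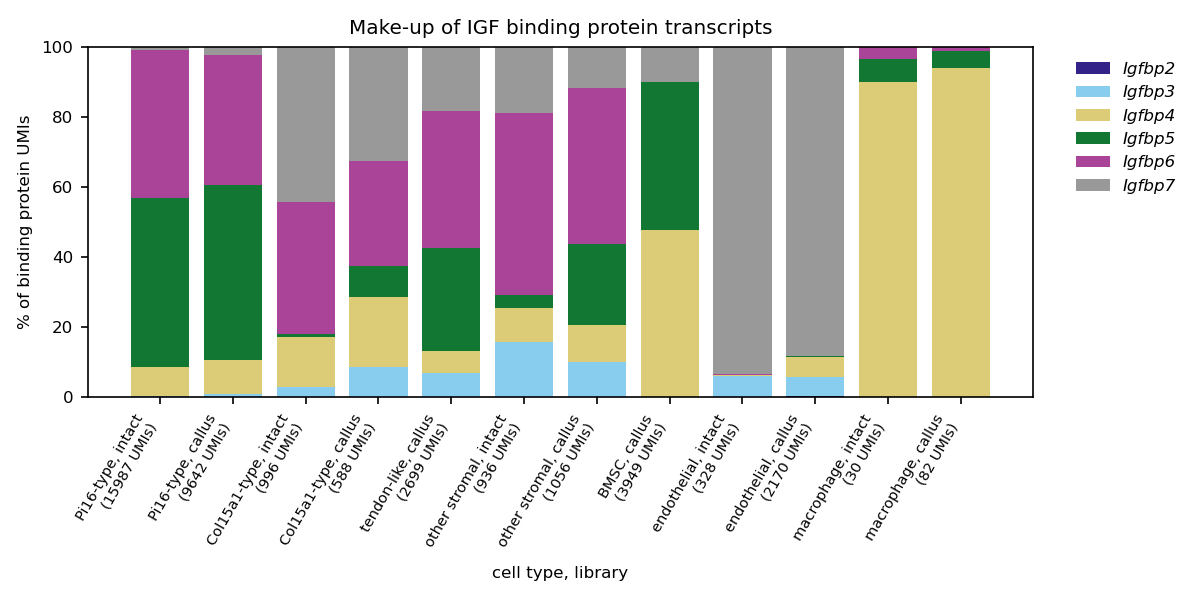
Share of each binding protein gene in the summed UMIs of the 6 (y axis, %) for cell types of both libraries (x axis, with the UMIs behind each bar). *Igfbp5* and *Igfbp6* fill the *Pi16*-type bars, *Igfbp7* and *Igfbp6* the larger part of the *Col15a1*-type bars, *Igfbp4* and *Igfbp5* the BMSC bar, *Igfbp7* the endothelial bars and *Igfbp4* the macrophage bars.

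BMSC of the callus had the highest levels of both *Igfbp4* and *Pappa* among the types described. *Igfbp4* (chr11:99041244-99054392, plus strand) had 6902 CPM (6593–7221) in BMSC against 806 CPM (763–850) in callus fibroblasts, 8.56-fold higher (7.98–9.19). It was detected in 37 of 37 BMSC. *Pappa* (chr4:65124174-65357509, plus strand) had 599 CPM (510–698) against 28.4 CPM (20.8–37.7), 21.1-fold higher (15.2–29.9). After thinning 62.9% of BMSC (44.9–78.5) and 1.57% of callus fibroblasts (0.325–4.52) had a *Pappa* UMI, and without thinning 34 of 37 BMSC did. The transcripts of the protease and of its best known substrate were therefore found in the same cells. *Stc1* and *Stc2*, which encode the stanniocalcins that inhibit PAPP-A, had 0 UMIs in BMSC, as did the related protease *Pappa2*. This was not particular to BMSC, since *Stc1* and *Pappa2* also had 0 UMIs in *Pi16*-type, *Col15a1*-type and tendon-like cells and osteoblasts. For *Stc2* the BMSC value allows up to 13.5 CPM, above its 4.36 CPM in callus *Pi16*-type cells. *Igfbp5*, the other substrate, had 6086 CPM (5797–6387), 1.71-fold above fibroblasts.

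Of 9 genes compared between BMSC and callus fibroblasts, 6 were at least 2-fold apart, where 29.3% of all genes were. *Igfbp4*, *Igfbp7* and *Pappa* were higher in BMSC, and *Igf1r*, *Igfbp3* and *Igfbp6* lower. *Igfbp7* stood at 1477 CPM (1336–1628) against 626 CPM (589–665). In the same BMSC the 8 osteoblast-list genes summed to 7985 CPM against 83568 CPM in osteoblasts, with all 8 seen. Of these BMSC UMIs, 1062 of 2174 were in 1 cell, and the median BMSC had 2 of the 8 genes. The 9 macrophage-list genes summed to 404 CPM, with 56 of 110 UMIs in 1 cell. The part of these lists in the values was not tested.

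The start regions of the 2 binding protein genes with the highest BMSC levels are shown because no other of the 10 genes came near their level in these cells. They are the 60 bases before the start site in RefSeq (GRCm38.p6), 5′ to 3′ on the gene's strand, with capitals for the letters TATAAA, searched on the gene's strand with the motif starting 40 to 19 bases before the start:
*Igfbp4* (chr11:99041184-99041243, plus strand): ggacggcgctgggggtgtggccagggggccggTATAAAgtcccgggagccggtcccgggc
*Igfbp5* (chr1:72874866-72874925, minus strand): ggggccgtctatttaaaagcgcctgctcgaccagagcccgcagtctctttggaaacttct
The letters were found in *Igfbp4*, starting at position -28, and in none of the other windows of the 9 matched genes, whereas 1.94% of 32851 mouse start regions held them in this stretch. This describes these letters only.

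Osteoblasts of the callus were nearly empty of the IGF transcripts other than *Igf1r*. Of 6 genes compared with BMSC, 5 were at least 2-fold lower, where 48.1% of all genes were at least 2-fold apart and the median log2 ratio of all genes was -0.778. *Igfbp4* had 14 UMIs (23.5 CPM), of which 13 lay in 1 cell. *Igfbp5* had 28 UMIs (46.9 CPM), 20 of them in 1 cell, and *Pappa* had 1 UMI. *Igf1r* had 48.6 CPM in osteoblasts and 47.8 CPM in BMSC, and the interval of their ratio ran from 0.513 to 2.13. This likeness depended on summing UMIs, since with means over cells *Igf1r* too was at least 2-fold apart. The 8 osteoblast markers took 83568 CPM and the 9 stromal markers 248545 CPM of these cells, so a few matrix genes held a large share of their UMIs, and the part of this in the ratios was not tested.

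Tendon-like cells of the callus had more ligand and a different mix of binding proteins than *Pi16*-type cells. Of 9 genes, 6 were at least 2-fold apart against 19.3% of all genes. *Igf1* was 4.48-fold (3.97–5.06), *Igfbp7* 4.88-fold (4.17–5.73) and *Igfbp3* 4.36-fold (3.40–5.61) higher. *Igf2*, at 18 against 4 UMIs, was 10.4-fold higher (3.42–42.1), with 8 of the 18 UMIs in 1 cell. *Igfbp5* was 2.65-fold and *Igfbp4* 2.35-fold lower. The *Igfbp5* UMIs were uneven, with 315 of 787 in 1 tendon-like cell and a median of 1.39 per 10000. Single cells also carried most transcripts of other types in the tendon-like group. Of the erythroid-list UMIs, 7233 of 7284 were in 1 cell (18319 CPM against 156 CPM in callus *Pi16*-type cells), of the osteoblast-list UMIs 239 of 243 (611 against 18.5 CPM) and of the chondrocyte-list UMIs 55 of 55 (138 against 1.09 CPM). The log2 ratio of *Igf1* was 2.15 with haemoglobin, mitochondrial and ribosomal genes out of the total and 2.16 with them, and the part of the osteoblast and chondrocyte transcripts was not tested.

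Endothelial cells, typed by *Pecam1*, *Cdh5* and 7 other markers, had a higher level of *Igfbp7* than any stromal type described here. Its level was 4152 CPM (3700–4645) intact and 4456 CPM (4259–4661) callus, and it was detected in 17 of 17 and 75 of 78 thinned cells. *Igfbp3* was the second binding protein in the intact cells, at 271 CPM (166–419), and had 273 CPM (226–327) in the callus. *Igfbp4* differed between the libraries, with 1 UMI in 27 intact cells (13.6 CPM, 0.344 to 75.6) and 125 UMIs in 91 callus cells (292 CPM, 243 to 347). The ratio was 21.5-fold with an interval of 3.79 to 856. It was the only gene of the 4 compared that was at least 2-fold apart, where 18.8% of all genes were. The callus UMIs were from 27 cells, with at most 19 in 1 cell. Callus endothelial cells with *Igfbp3* and those with *Igfbp4* overlapped in 10 cells, while 26 had *Igfbp3* without *Igfbp4* and 17 the reverse. Median depth was 2463 UMIs in intact and 4384 in callus endothelial cells. *Igfbp4* in B lineage cells was 6.16 CPM intact and 41.9 CPM callus. Depth and the B lineage level thus both moved with endothelial *Igfbp4*, and their part was not tested. Whether the B lineage level of *Igfbp4* was free RNA was not tested either. The 9 stromal markers in endothelial cells summed to 81.4 CPM intact and 163 CPM callus, with *Pdgfrb* at 0 in both. Of the 9, 4 were seen in the intact and 7 in the callus cells. *Pdgfra*, *Col3a1*, *Mgp* and *Serpinf1* were seen in the callus only and *Lum* in the intact cells only. In the callus 44 of the 70 UMIs were in 1 cell. Marker lists of other cells were summed as well. The 9 neutrophil markers summed to 6731 CPM intact, with 469 of 496 UMIs in 1 cell, and to 406 CPM callus. The 5 erythroid markers summed to 2388 and 317 CPM. The 9 macrophage markers summed to 54.3 CPM intact and 264 CPM callus, with 52 of 113 callus UMIs in 1 cell and *C1qa*, *C1qb*, *C1qc* and *Adgre1* at 0 in both. The 6 BMSC markers summed to 3582 CPM intact, with *Lepr* and *Adipoq* at 0, and to 3171 CPM callus, with all 6 seen. The 5 progenitor markers summed to 489 CPM intact, with *Mpo*, *Elane* and *Prtn3* at 0, and to 898 CPM callus, with all 5 seen. The part of these lists in the *Igfbp4* values was not tested. All 10 *Igfbp2* UMIs of callus endothelial cells were in 1 cell. *Igfbp2* (chr1:72824503-72852474, plus strand), which lies 5457 bases from *Igfbp5*, had 0 UMIs in all fibroblasts, BMSC and osteoblasts.

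Macrophages with the C1q transcripts carried most of the *Igf1* seen in blood lineages. Their levels were 224 CPM (135–349) in 19 intact and 226 CPM (177–283) in 66 callus cells. Monocytes had 1 UMI in each library (2.51 and 0.358 CPM). Cells with both macrophage and monocyte markers lay between, at 164 CPM (60.2–357) in 6 intact and 82.3 CPM (57.3–114) in 55 callus cells, and the callus interval was clear of both neighbours. *Igfbp4* followed the same callus order, with 232 CPM (183–289) in macrophages, 132 CPM (99.5–171) in cells with both marker sets and 23.6 CPM in monocytes, again with intervals that did not overlap. Of 3 genes compared between callus and intact macrophages none was at least 2-fold apart, where 17.4% of all genes were, and with 19 intact cells smaller differences could not be seen. The 9 stromal markers summed to 58.8 and 51.1 CPM in these macrophages, with *Pdgfrb* at 0 in both. *Igfbp3*, *Igfbp7* and *Pappa* had 0 UMIs in them. *Igfbp4* was also found in myeloid progenitors, at 228 CPM (186–276) intact and 310 CPM (299–322) callus.

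The callus and intact libraries were then compared within types. Over all fibroblasts, 3 of 9 genes were at least 2-fold apart, where 7.19% of all genes were: *Igf1* was 2.73-fold (2.49–2.99), *Igfbp3* 2.26-fold (1.93–2.66) and *Pappa* 2.43-fold (1.45–4.20) higher in the callus. For *Pappa*, 22 of the 47 callus UMIs came from 1 cell, and the log2 ratio of 1.28 became 0.66 without the cell with the most UMIs in each library. The fibroblast mix differed as well, with tendon-like cells at 33 of 205 callus and 4 of 276 intact fibroblasts, and these had the highest *Igf1*. *Igfbp4* (0.997-fold), *Igfbp5* (0.904-fold) and *Igfbp6* (0.802-fold) differed little in level.

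Within *Pi16*-type cells, 4 of 8 genes were at least 2-fold higher in the callus library, where 6.24% of all genes were at least 2-fold apart. *Igf1* was 2.28-fold (1.95–2.67), *Igfbp3* 2.85-fold (2.04–4.03) and *Igfbp7* 2.38-fold higher (1.93–2.93). *Pappa* had 0 intact UMIs and 23 callus UMIs, of which 22 were in 1 cell. The abundant binding proteins differed little, *Igfbp5* by 0.999-fold, *Igfbp4* by 1.10-fold and *Igfbp6* by 0.849-fold, and *Igf1r* was 0.674-fold (0.534–0.848). These values depended on how the types were drawn. The tendon-list genes summed to 269 CPM in callus and 22.5 CPM in intact *Pi16*-type cells. When cells with any tendon-list transcript were left out, 102 callus and 195 intact cells remained, with *Igf1* at 339 CPM (298–385) against 166 CPM (145–188), *Igfbp3* at 96.1 CPM (74.6–122) against 27.4 CPM (19.4–37.5) and *Igfbp7* at 151 CPM (124–183) against 95 CPM (79.5–113). In these cells 2 of 7 genes, *Igf1* and *Igfbp3*, were at least 2-fold apart. With types from Leiden clusters it was 1 of 7 at stromal resolution 0.5 and 0 of 7 at resolution 1, where the log2 ratio of *Igf1* was 0.51 and that of *Igfbp3* -0.30. With the mean over cells in place of the sum it was 2 of 8, *Igfbp7* and *Pappa*. The share of all genes at least 2-fold apart was not computed under these alternatives, so these counts stand without a background. The part of the tendon-list transcripts in the library difference was not tested.

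**Figure D5:**
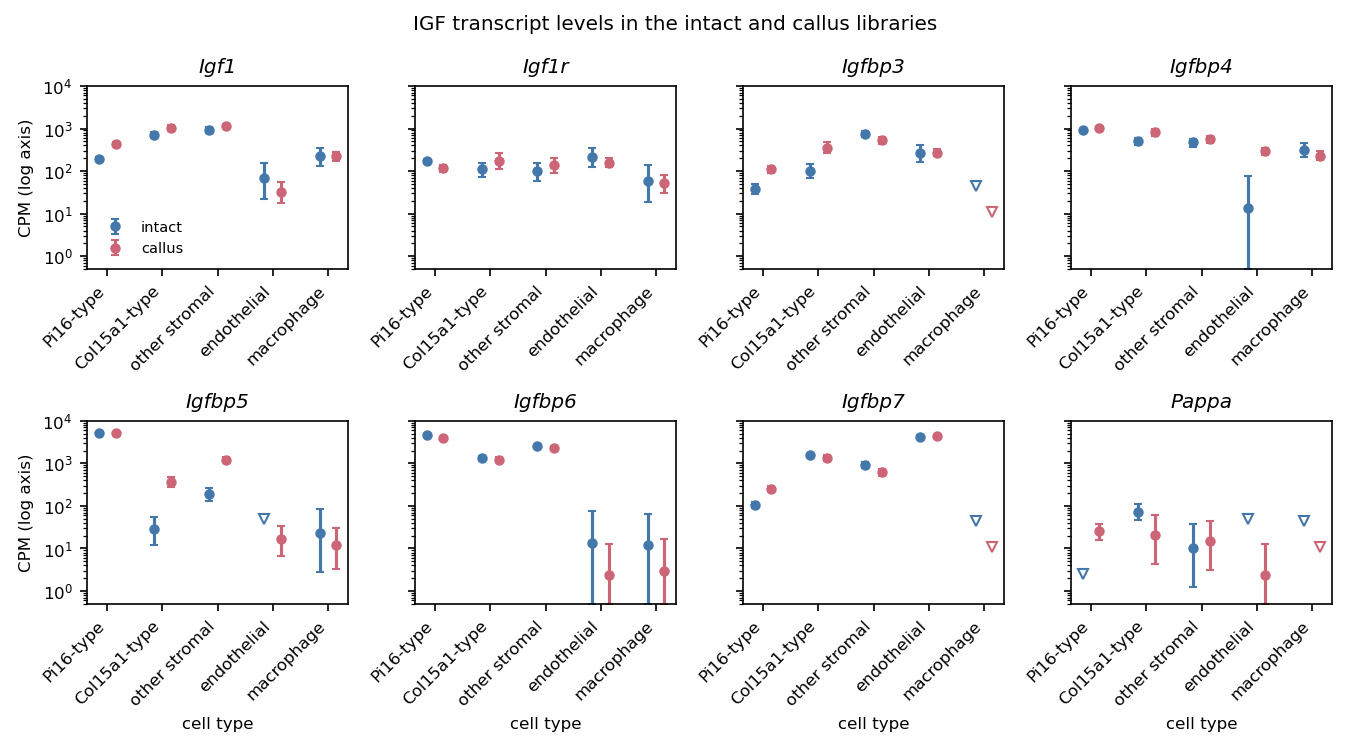
CPM (y axis, logarithmic) of 8 IGF genes by cell type (x axis) in the intact (blue) and callus (red) libraries. Bars are Poisson 95% intervals, cut off at the lower axis limit, and open triangles mark the upper interval bound where no UMI was seen. *Igfbp5* in *Pi16*-type cells is at 5252 and 5245 CPM, *Igfbp7* in endothelial cells at 4152 and 4456 CPM, and *Igfbp4* in endothelial cells at 13.6 and 292 CPM.

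Within *Col15a1*-type cells 4 of 9 genes were at least 2-fold apart, where 14.3% of all genes were. *Igf2* (13 against 8 UMIs), *Igfbp3* (51 against 29) and *Igfbp5* (52 against 8) were higher and *Pappa* (3 against 21) lower in the callus. Without the cell with the most UMIs of each gene, 2 of these, *Igfbp3* and *Igfbp5*, were still at least 2-fold apart, and *Igf2* and *Pappa* had too few UMIs left to compare. *Igf1* was 1.44-fold higher (1.16–1.79). The 5 erythroid markers summed to 30909 CPM in intact *Col15a1*-type cells, with 8530 of 8795 UMIs in 1 cell, and to 147 CPM in the callus. With haemoglobin, mitochondrial and ribosomal genes out of the total, the log2 ratios of *Igf1*, *Igfbp3* and *Igfbp5* were 0.50, 1.78 and 3.67 in place of 0.53, 1.81 and 3.70. In other stromal cells 1 of 7 genes, *Igfbp5*, was at least 2-fold apart, at 1214 CPM (1066–1376) in the callus against 191 CPM (134–263), where 12.6% of all genes were. Of its 244 callus UMIs, 85 were in 1 cell, and with Leiden clusters at resolution 1 the log2 ratio of 2.67 became 0.90.

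The rest of the pathway was followed with a list of 33 receptors, adaptors, kinases, FoxO factors and regulators of binding proteins. In *Pi16*-type cells 22 had at least 20 UMIs, and 0 were at least 2-fold apart between callus and intact, where 6.24% of all genes were. Over all fibroblasts 2 of 23 were, *Igf2bp2* and *Igf2bp3*, both lower in the callus, where 7.19% of all genes were apart. In *Col15a1*-type cells 2 of 12, *Irs1* and *Irs2*, were higher in the callus (14.3% of all genes). The intervals of the libraries overlapped for *Irs1* (12 against 10 UMIs) and not for *Irs2* (26 against 17). In endothelial cells the levels of *Igf2r* (54 callus against 4 intact UMIs) and *Pik3r1* (43 against 3) were higher in the callus. Those of *Insr* (22 against 8) and *Gab1* (13 against 7) were lower, of 11 genes (18.8%). For each of these endothelial genes the intervals of the libraries overlapped. In other stromal cells *Akt1* was higher and *H19* lower, of 11 (12.6%), and in macrophages *Pik3ca* and *Akt2* were lower, of 5 (17.4%). The macrophage intervals overlapped for *Pik3ca* (15 callus against 8 intact UMIs) and not for *Akt2* (14 against 12). Between the fibroblast types of the intact library, 3 of 22 were at least 2-fold higher in *Pi16*-type and 5 in *Col15a1*-type cells, where 21.7% of all genes were apart. In the callus it was 2 and 7 of 20, against 21% of all genes. *Ghr*, the growth hormone receptor through which hepatic and local *Igf1* is induced, was 3.73-fold higher in intact and 2.76-fold higher in callus *Col15a1*-type cells (119 against 32.1 and 126 against 45.8 CPM). *Irs1*, the adaptor that couples the receptor to PI3K, was 2.71-fold and 4.29-fold higher there, from 10 against 19 and 12 against 18 UMIs. *H19*, the non-coding RNA of the imprinted locus next to *Igf2*, went the other way, at 126 CPM in intact *Pi16*-type cells and 0 UMIs in intact *Col15a1*-type cells, at least 11.9-fold higher against the limit of 3 counts. It was 5.44-fold higher in the callus, at 153 CPM (128–180) against 28.1 CPM (7.65–71.9), the latter from 4 UMIs.

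Between BMSC and callus fibroblasts, 6 of 23 pathway genes were at least 2-fold higher and 6 lower, where 29.3% of all genes were apart. *Ghr* had 253 against 71.2 CPM and *Irs1* 140 against 36.2 CPM. *Grb14*, an adaptor that inhibits insulin receptor signalling, had 118 against 7.84 CPM, and *Pik3r1*, a regulatory subunit of PI3K, 430 against 154 CPM. *Igf2r*, the receptor that clears IGF2, was lower at 51.4 against 165 CPM, and so were *Grb10* (103 against 287 CPM) and *Irs2* (22.0 against 58.5 CPM). *H19* had 0 UMIs in BMSC against 178 CPM. In tendon-like against *Pi16*-type cells of the callus, *Ghr*, *Irs1*, *Irs2* and *H19* were at least 2-fold higher and *Igf2bp2* lower, of 20 genes, against 19.3% of all genes. *Igfbp1*, which lies 3539 bases from *Igfbp3*, had 0 UMIs in every fibroblast type, BMSC, osteoblasts, endothelial cells and macrophages. *Insr*, the insulin receptor, stood between 19.6 and 109 CPM, highest in intact endothelial cells with 8 UMIs.

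Across 26 groups of at least 20 cells (a type in a library), the genes most like each member were found by Pearson's r of log2(CPM + 10) among 11612 genes. *Igfbp6* was most like *Fndc1*, *Mfap5* and *Dpt* (r = 0.994, 0.993 and 0.992), fibroblast matrix genes. *Igfbp5* was most like *Plce1*, *Tpbg* and *Gpc6* (0.970, 0.962 and 0.960), and *Igfbp7* like *Fmo1*, *Tmem47* and *Fbxl7* (0.986, 0.982 and 0.975). For *Igf1* they were *Mir99ahg*, *Pmp22* and *Pros1* (0.931, 0.930 and 0.915), for *Igf1r* *Agap1*, *Cpd* and *Selenon* (0.903, 0.877 and 0.843) and for *Igf2* *Synm*, *Nrep* and *Tef* (0.845, 0.835 and 0.819). For *Igfbp3* they were *Ecm2*, *Mest* and *Spats2l* (0.967, 0.963 and 0.960), for *Igfbp4* *Nlgn2*, *Wwox* and *Ergic1* (0.905, 0.879 and 0.864) and for *Pappa* *Mdk*, *Igsf3* and *Cyp1b1* (0.944, 0.916 and 0.900). Of the 234 *Pappa* UMIs over these groups, 163 were in callus BMSC, and the part of this 1 group in its r was not tested. Groups of the same library share its depth and free RNA, groups of a type share its genes, and the r at rank 100 was still 0.925 for *Igfbp6* and 0.858 for *Igf1*. Among the members themselves the highest r was 0.92, between *Igfbp3* and *Igfbp7*, and the lowest 0.25, between *Igf2* and *Igfbp4*.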

How the data were processed

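The authors aligned the reads of each 10x 3′ V3 library to mm10 with Cell Ranger 6.0.0 and deposited raw UMI counts per gene and cell barcode; these counts were used as deposited. A cell was kept if it had 500 or more detected genes and no more than 10% of its UMIs from mitochondrial transcripts. The markers of each cell type with a UMI were counted in every cell, and a cell took the type whose minimum it reached (5 of 9 for the stromal, endothelial and macrophage lists, 4 of 8 for osteoblasts, 4 of 6 for BMSC and 3 of 8 for tendon-like cells). *Pi16*-type and *Col15a1*-type cells needed a share of 0.5 of their list and a lead of 0.25 over the other. All other types were gated the same way. Cells that reached the progenitor minimum together with the monocyte or neutrophil minimum, or both, were called progenitors. Cells with the monocyte and dendritic cell minima were called dendritic cells, and those with the macrophage and monocyte minima formed their own type. Near the line, 10 intact and 25 callus cells had exactly the stromal minimum, 2 and 6 the endothelial, and 3 and 26 the macrophage minimum.

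UMIs were summed per type and library, and genes with at least 20 UMIs over both groups and a ratio of at least 2 either way were counted as apart. A ratio against a group with 0 UMIs was computed against 3 counts over that group, as an approximate lower bound. The exact interval reaches lower, for *Pappa* in *Pi16*-type cells to 9.19-fold where this bound is 12.3-fold. Shares used cells thinned to 2000 UMIs, and shallower cells were left out. Intervals and floors cover counting error only, and no p-value was computed because each condition had 1 library of pooled tissue. The members and gene lists were chosen with earlier results of these data known. Genes named besides the members and markers were those of the pathway list and the 3 genes closest by Pearson's r to each member with at least 100 UMIs. Doublets were not removed in the values reported, beyond the left-out cells with markers of several lineages. Scrublet marked 3 intact and 4 callus cells, which is too few to count as a working call. The alternatives were other cell filters, a gate with 1 more marker, Leiden clusters in place of the gate, Scrublet calls left out, means over cells, the top cell left out, another total, 10 CPM added, unthinned shares and a minimum of 2 UMIs. Of the 32285 gene identifiers 99.6% were in the GENCODE annotation of GRCm38, from which positions were taken, and 9 members were in the RefSeq promoter table. Protein sequences were not used here. Scripts were tested on simulated counts. Tools were Python 3.11.15, numpy 2.4.6, scipy 1.17.1, pandas 2.3.3, matplotlib 3.10.9, scanpy 1.11.5 and leidenalg 0.10.2.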

Additional observations from a re-analysis of the deposited data

Results flagged for a closer look

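*Pappa* differed between the libraries in opposite directions in the 2 fibroblast types. In *Pi16*-type cells the callus over intact log2 ratio was at least 3.62, from 23 against 0 UMIs, and 22 of the 23 UMIs lay in 1 cell, which also had a tendon-list transcript. In *Col15a1*-type cells it was -1.81, from 3 UMIs in 17 callus cells against 21 UMIs in 12 of 38 intact cells. The difference between the types was not tested, since each condition had 1 library.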

How the results depend on the processing

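No paired analysis was possible because each condition had 1 library. Of 41 ratios of at least 2-fold, 4 of them bounds against a group with 0 UMIs, each kept its direction under every alternative that gave it a value, except *Igfbp3* between callus and intact *Pi16*-type cells, whose log2 ratio of 1.51 became -0.30 with Leiden clusters at stromal resolution 1. That resolution, and leaving out *Pi16*-type cells with a tendon-list transcript, were chosen after seeing the data. Stromal resolution 0.5 put the *Col15a1*-type and tendon-like cells in 1 cluster and gave no *Col15a1*-type value. Some ratios kept their direction but fell below 2-fold. For tendon-like over *Pi16*-type callus cells, the log2 ratio of *Igfbp5* went from -1.41 to -0.95 with 1 more marker. That of *Igfbp4* went from -1.23 to -0.76 at resolution 0.5. Between callus and intact *Pi16*-type cells, *Igfbp7* went from 1.25 to 0.86 and 0.60 at resolutions 0.5 and 1. The number of members at least 2-fold apart between callus and intact *Pi16*-type cells was 4, but 1 at resolution 0.5, 0 at resolution 1, 2 without cells with a tendon-list transcript and 2 with means over cells. In *Col15a1*-type cells it was 4, and 2 without the top cell of each gene. In other stromal cells it was 1, and 0 at resolution 1, and in endothelial cells 1, and 2 with 1 more marker (*Igf1* and *Igfbp4*). The share of all genes was computed for the main setting only, so the counts under the alternatives have no background.

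For *Igf1*, callus over intact, the log2 ratio in *Pi16*-type cells was 1.19, and 0.68 and 0.51 at resolutions 0.5 and 1. In *Col15a1*-type cells it was 0.53, and 1.07 with 1 more marker and 0.91 with means over cells. Intact *Pi16*-type *Igfbp5* was 5252 CPM, and 5413 and 5405 CPM in the clusters, 5129 CPM with 1 more marker, 5699 CPM as a mean over cells, 5098 CPM without the top cell and 6404 CPM without haemoglobin, mitochondrial and ribosomal genes in the total. Its share of binding protein UMIs was 48.1%, and 49.1% as a mean and 47.3% without the top cell. Its log2 ratio between the fibroblast types was 7.55 intact, and 6.12 at resolution 1, and 3.85 callus, and 4.40 without the top cell. *Pappa* was detected in 62.9% of BMSC, in 37.1% from 2 UMIs and in 91.9% without thinning. *Igfbp4* in endothelial cells kept a log2 ratio of 3.68 to 4.82 around 4.43, but without the top cell the intact cells had 0 UMIs and gave no value. *Igfbp6* between the callus fibroblast types went from 1.66 to 0.93 at resolution 1. Apart from these constructions, the cause was not tested. With 17 callus *Col15a1*-type and 19 intact macrophages, smaller differences could not be seen.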

Other observations

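Outside the stroma, *Igf2* was seen in muscle fibre cells at 12.3 CPM (3 UMIs in 66 intact cells) and 60.1 CPM (36 UMIs in 216 callus cells). Mural cells were found in the callus library only, where 3 cells had 84 *Igfbp7* UMIs (6049 CPM). Callus *Igfbp4* was higher than intact in several blood lineages, at 55.6 against 15.4 CPM in neutrophils, 41.9 against 6.16 CPM in B lineage cells and 23.6 against 5.02 CPM in monocytes. These levels lay below those in macrophages and myeloid progenitors of the same library.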
